A study of Mus musculus with 12 samples.

Results

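The major urinary protein (Mup) genes measured here were the 5 rows of the deposited liver expression table whose gene symbol is Mup followed by a digit, namely Mup2, Mup8, Mup13, Mup14 and Mup19, of 3799 genes in all. All 5 had a mean of at least 1 FPKM (a fragment count divided by transcript length and by the mapped fragments of the library) and so were among the 3317 genes tested. The authors had selected the genes of the table as differentially expressed, so shares, medians, ranks and adjusted p-values over all genes below refer to that selection. The p-values and calls are thus from genes already selected, not from a test over all expressed genes. Livers came from male C57BL/6J mice, 8 weeks old at the start, in 4 groups of 3 libraries. The labels number the libraries of a group as replicates without naming the animals, so the p-values measure the spread between these libraries. The Saline group, labelled vehicle, was injected without doxorubicin, and the DOX group received doxorubicin, an anthracycline used here to speed up aging, at 10 mg/kg into the abdomen on day 0 and day 7. The DOX + K35 and DOX + K27 groups received the same injections and, from day 2 and every other day, 50 mg/kg of K35 or of its analog K27 by the intragastric route, while the DOX mice were given the carrier alone. Livers were taken on day 20, and whole tissue was sequenced after poly-T selection. The 12 libraries carry group letters and numbers, and 9 of them could be tied to a labelled replicate. The other 3, libraries B3 and B4 of DOX and library C4 of DOX + K35, could be placed in a group but not matched to a replicate number. Library C4 is given separately throughout, because it stood apart from all other libraries in the Mup genes.

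Mup proteins are small secreted lipocalins, barrel-shaped carriers that the hepatocytes release into blood and that pass into urine, where they bind and slowly release volatile pheromones. Their genes form a dense cluster of recent duplicates, and male mouse liver is their main source. Transcription of the cluster is known to follow pulsatile growth hormone, acting through its receptor, the kinase JAK2 and the transcription factor STAT5B, and to respond to androgens, thyroid hormone, glucocorticoids and the nutritional state.

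The members lay on the minus strand of chromosome 4 (GRCm38, GENCODE M21), Mup2 at chr4:60135932-60154289, Mup8 at chr4:60218621-60222599, Mup13 at chr4:61224307-61228286, Mup14 at chr4:61300023-61304000 and Mup19 at chr4:61778324-61782269. They were 5 of 22 protein-coding Mup genes annotated between positions 59956804 and 62150863. The others were not analysed here. Each member had a transcript of 7 exons with a coding sequence of 540 bases, or 180 codons. Over these 540 bases, pairs of members differed at 3 to 8 positions (98.5% to 99.4% identity), and 11 positions in all were not the same in the 5 genes. The 40-base stretch with the most such positions, 4, lay at coding positions 3 to 42 in exon 1 and is shown because it is where these genes can be told apart best. Capitals mark the positions at which the 5 genes were not all alike.
Mup2: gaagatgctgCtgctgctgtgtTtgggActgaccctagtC
Mup8: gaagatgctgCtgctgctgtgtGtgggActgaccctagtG
Mup13: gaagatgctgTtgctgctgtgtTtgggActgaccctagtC
Mup14: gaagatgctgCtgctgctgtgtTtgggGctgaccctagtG
Mup19: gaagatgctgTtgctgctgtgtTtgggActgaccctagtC

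On the genome these stretches were chr4:60139745-60139784, chr4:60222428-60222467, chr4:61228119-61228158, chr4:61303848-61303887 and chr4:61782117-61782156 in the same order, all read 5′ to 3′ on the minus strand. Mup13 and Mup19 were identical over this stretch. A further stretch of 40 bases in exon 2, coding positions 152 to 191, held 3 more such positions and separated them.
Mup2: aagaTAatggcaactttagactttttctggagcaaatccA
Mup8: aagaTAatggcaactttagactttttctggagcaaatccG
Mup13: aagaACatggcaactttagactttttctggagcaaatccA
Mup14: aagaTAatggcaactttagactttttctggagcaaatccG
Mup19: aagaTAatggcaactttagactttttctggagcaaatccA

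These stretches were chr4:60139258-60139297, chr4:60221941-60221980, chr4:61227632-61227671, chr4:61303361-61303400 and chr4:61781630-61781669. Among the 14 Mup genes with a coding sequence of this length, Mup2, Mup13 and Mup19 had a closer copy outside the table than inside it. The closest to Mup8 was Mup14, which was as close to Mup8 as to Mup12. The coding sequence of Mup19 differed at 1 position from those of Mup9 and Mup16, and that of Mup2 at 2 positions from those of Mup9 and Mup15. A sequenced fragment could therefore often not be assigned to 1 gene. Of all stretches of 100 bases in the transcript of each member, 22.2% for Mup8, 17.7% for Mup13, 8.60% for Mup14 and 2.66% for Mup2 occurred in no other annotated gene. For Mup19 the count was 0 of 828, and with stretches of 150 bases it was 0.900%. How the reads of such copies were divided is not given in the sources used here, so the values of single members, those of Mup19 and Mup2 above all, are uncertain, and the sum over the 5 genes is given beside them.

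Promoter sequence was at hand for 3 of the 5 members, Mup2, Mup14 and Mup19 (RefSeq, GRCm38.p6). The 150 bases before the annotated start are shown because the 3 genes share long runs of them.
Mup2: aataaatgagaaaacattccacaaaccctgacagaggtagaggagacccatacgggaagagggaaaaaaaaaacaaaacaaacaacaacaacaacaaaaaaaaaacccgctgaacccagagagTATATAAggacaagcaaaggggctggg
Mup14: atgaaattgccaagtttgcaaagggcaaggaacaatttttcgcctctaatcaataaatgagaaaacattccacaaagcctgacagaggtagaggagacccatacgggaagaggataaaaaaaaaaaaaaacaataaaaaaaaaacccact
Mup19: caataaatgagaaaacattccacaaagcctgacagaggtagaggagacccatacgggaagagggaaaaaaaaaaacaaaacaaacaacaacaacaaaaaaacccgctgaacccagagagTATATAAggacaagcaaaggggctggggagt

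They were chr4:60139857-60140006, chr4:61303999-61304148 and chr4:61782225-61782374 on the minus strand. Capitals mark TATATAA, a form of the TATA box, which was searched on both strands of the 250 bases before the start. It was found once in Mup2, 20 bases before the start, and once in Mup19, 24 bases before it, and not in that window of Mup14. Over all 32851 RefSeq promoters, 3.04% held it. The palindrome TTCNNNGAA, the letters that STAT5 proteins bind, was in none of the 3 windows and in 7.02% of all promoters. Within the 250 bases, Mup2 and Mup19 shared an unbroken run of 121 bases, Mup2 and Mup14 one of 86 bases, and Mup14 and Mup19 one of 82 bases. The run of Mup2 and Mup14 ended 164 bases before the Mup2 start but 113 bases before the Mup14 start. The counterpart in Mup14 of the TATATAA of Mup2 would thus lie past the annotated Mup14 start. It was not searched, so the window does not show whether Mup14 holds the motif there. The TATATAA motif was chosen after these sequences had been seen.

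In 11 of the 12 libraries Mup2, Mup13, Mup14 and Mup19 ranked by FPKM between 35 and 268 of the 3317 genes tested. Mup8 ranked between 95 and 2458 of them. The 5 members summed to 432 to 1490 FPKM in these libraries. In library C4 the first 4 ranked between 3124 and 3229 and Mup8 at 3255, and the sum was 4.30 FPKM. Replicate libraries, library C4 apart, correlated at 0.930 or more over the genes tested. The sum of the values of all genes differed between libraries, and the 13 mitochondrially encoded genes took between 37.9% and 83.3% of it, with the highest shares in DOX (62.2% to 83.3%). Read counts and sequencing depths were not among the values used here, so no counting error is given, and the precision of a value rests on the spread between libraries.

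Mup2 in the Saline livers was measured at 107, 184 and 136 FPKM. In the DOX livers it was at 212, 175 and 289.7 FPKM. The DOX + K27 livers held 207, 124 and 151 FPKM, and the first pair of DOX + K35 libraries 136 and 125 FPKM. Library C4 held 0.818 FPKM. Of the 6 pairs of groups, only DOX and DOX + K35 did not overlap in this gene, with or without that library.

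Mup14, the member that tracked Mup2 most closely (Pearson r = 0.902 over the 11 libraries without C4), was at 103, 171 and 149 FPKM in Saline. It was at 249, 199.7 and 355 FPKM in DOX, every DOX liver above every Saline liver. In DOX + K27 it was at 187, 154 and 214 FPKM, which overlapped both of these groups. In DOX + K35 it was at 119 and 134 FPKM and, in library C4, at 1.099 FPKM. All DOX + K35 libraries were thus below all DOX and all DOX + K27 libraries in Mup14.

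Mup13, on average the most abundant member, was at 139, 295 and 170.3 FPKM in Saline and at 337, 203 and 330.4 FPKM in DOX. It was at 230.2, 182 and 211 FPKM in DOX + K27. In DOX + K35 the range was widest, with 171 and 380.1 FPKM in replicates 1 and 2 and 1.098 FPKM in library C4. The second of these was the highest Mup13 value of the 12 libraries and the last the lowest.

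Mup19 was at 79.4, 125 and 91.0 FPKM in Saline and at 174, 120.5 and 206 FPKM in DOX + K27. In DOX, library B3 with 129 and library B4 with 142 FPKM were close to the highest Saline liver, and replicate 1 was at 532 FPKM. In DOX + K35, replicates 1 and 2 were at 170.2 and 342 FPKM and library C4 at 0.705 FPKM. A single DOX liver thus set most of the difference between the DOX mean of 267 ± 229 FPKM and the Saline mean of 98.4 ± 23.5 FPKM (SD, n = 3).

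Mup8 had the lowest level of the members in Saline and, outside library C4, the largest differences from Saline on the log2 scale. Saline replicates 1 and 3 held 2.61 and 4.83 FPKM and replicate 2 held 39.8 FPKM. The DOX livers held 161, 69.9 and 111 FPKM. The DOX + K27 livers held 80.1, 59.96 and 95.5 FPKM, and the DOX + K35 livers 56.0 and 49.5 FPKM, with 0.576 FPKM in library C4. Every library of a mouse given doxorubicin, library C4 apart, was above every Saline library in Mup8. Of all genes, 12.3% had every DOX value above every Saline value, and 11.0% every DOX + K27 value. The share for these groups together was not counted.

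**Figure D1:**
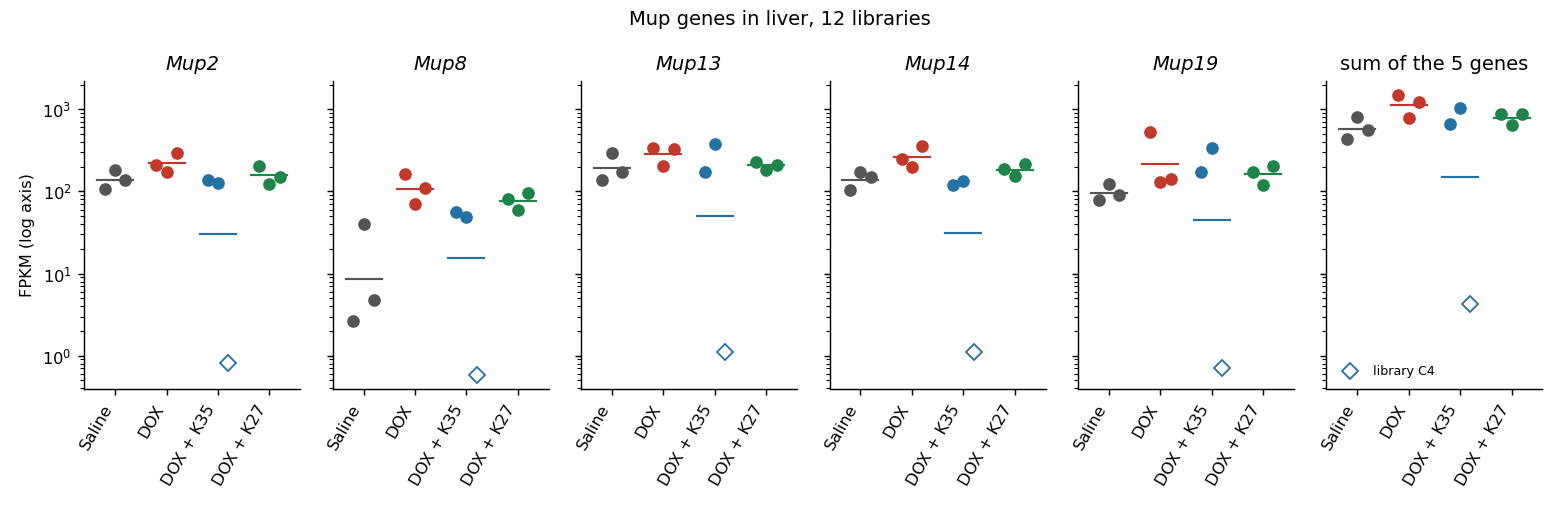
FPKM on a log axis of the 5 Mup genes and of their sum in the 12 liver libraries by group. Each filled point is a library, the open diamond is library C4 of DOX + K35, and the line is the back-transformed mean of log2(FPKM + 1) of the 3 libraries of a group. The 11 other libraries sum to 432 to 1490 FPKM, and library C4 to 4.30 FPKM.

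The sum of the 5 genes was 599 ± 196 FPKM in Saline, 1164 ± 361 FPKM in DOX, 798 ± 136 FPKM in DOX + K27 and 563 ± 519 FPKM in DOX + K35 (mean ± SD, n = 3). The last was 842 ± 267 FPKM (n = 2) without library C4. The fitted differences on the log2 scale were 0.96 for DOX against Saline (two-sided exact permutation p = 0.2), -0.51 for DOX + K27 against DOX (p = 0.3) and -2.88 for DOX + K35 against DOX (p = 0.2), where 3 libraries against 3 cannot give a p below 0.1. Without library C4 the last was -0.45 (exact permutation p = 0.4). None of these sums separated the groups fully.

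The comparison of DOX with Saline asked what doxorubicin did to the liver. On the log2(FPKM + 1) scale, a linear model over all genes (limma, p-values adjusted over 3317 genes by the Benjamini-Hochberg method) gave a positive difference for each member, and no member passed the adjusted p threshold of 0.05. Of all genes, 0.181% passed it in either direction. Mup8 had the largest positive difference of all genes tested, 3.52 ± 1.104 (SE; 95% interval 1.15 to 5.88; adjusted p = 0.0612). Mup19 followed at 1.14 ± 1.35 (adjusted p = 0.504), Mup14 at 0.91 ± 1.09 (adjusted p = 0.508), Mup2 at 0.66 ± 1.13 (adjusted p = 0.647) and Mup13 at 0.56 ± 1.28 (adjusted p = 0.734). The median difference of all genes tested was -0.34 in this comparison, so each member stood higher against that median than against 0. In 3 of the 5 members, Mup8, Mup14 and Mup19, every DOX value was above every Saline value, as in 12.3% of all genes. These standard errors are wide because the fit pools the spread within all 4 groups, and library C4 enters it. The spread within groups was 1.74 to 2.17 for the members against a median of 0.34 for all genes. Without library C4 it was 0.33 to 1.06.

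Without library C4 the differences were the same and their errors smaller. Mup8 then rose with doxorubicin, at 3.52 ± 0.66 (adjusted p = 0.0267), when 0.151% of all genes were called higher. Mup14 had an adjusted p of 0.0555, Mup19 of 0.0829, Mup2 of 0.129 and Mup13 of 0.258. With all 12 libraries, Mup8 also passed the threshold after median-ratio scaling (adjusted p = 0.0431), after quantile normalization (adjusted p = 0.0457) and with the 20 most abundant genes left out (adjusted p = 0.0243), when 10.01%, 11.2% and 29.9% of all genes tested were called higher. Its adjusted p was 0.0846 with the mitochondrially encoded genes left out, 0.0632 with a pseudocount of 0.1, 0.0665 with no filter on low values and 0.122 in a fit of these groups alone. It did not pass without any other single library, with adjusted p-values from 0.0502 without DOX replicate 1 to 0.201 without Saline replicate 1.

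In DOX + K35 against DOX, the comparison that asked what K35 added to doxorubicin, all 5 members were lower and 3 passed the threshold. Mup14 fell by 3.01 ± 1.09 on the log2 scale (SE; adjusted p = 0.0289), Mup2 by 2.81 ± 1.13 (adjusted p = 0.0468) and Mup8 by 2.72 ± 1.104 (adjusted p = 0.0480), when 10.7% of all genes were called lower. Mup13 differed by -2.46 ± 1.28 (adjusted p = 0.114) and Mup19 by -2.21 ± 1.35 (adjusted p = 0.174). These differences were among the 6 most negative of the 3317 genes, Mup14 first and Mup2 second. The median difference of all genes was 0.46, and it moved with the scaling, down to -0.13 with the 20 most abundant genes left out, while all 5 members were negative under each scaling tried. In Mup2, Mup8 and Mup14 every DOX + K35 value was below every DOX value, as in 15.4% of all genes.

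Library C4 carried most of this. Without it, the differences from DOX were -1.04 ± 0.38 for Mup14 (adjusted p = 0.0278), -0.75 ± 0.38 for Mup2 (adjusted p = 0.09995), -1.02 ± 0.74 for Mup8 (adjusted p = 0.234), -0.15 ± 0.45 for Mup13 (adjusted p = 0.769) and 0.18 ± 0.56 for Mup19 (adjusted p = 0.780). Mup14 alone of the members was then called lower, when 16.8% of all genes were, and the sign of Mup19 turned. The median of all genes was then 0.53. The call of Mup14 was lost when DOX replicate 1 (adjusted p = 0.0511), library B3 (adjusted p = 0.0512) or library B4 (adjusted p = 0.0910) was left out. The calls of Mup2 and Mup8 each held in 2 and 4 of the 12 cases in which 1 library was left out. Without DOX + K35 replicate 2, which held high values of Mup13 and Mup19, both of these also passed the threshold (adjusted p = 0.0231 and 0.0347).

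**Figure D2:**
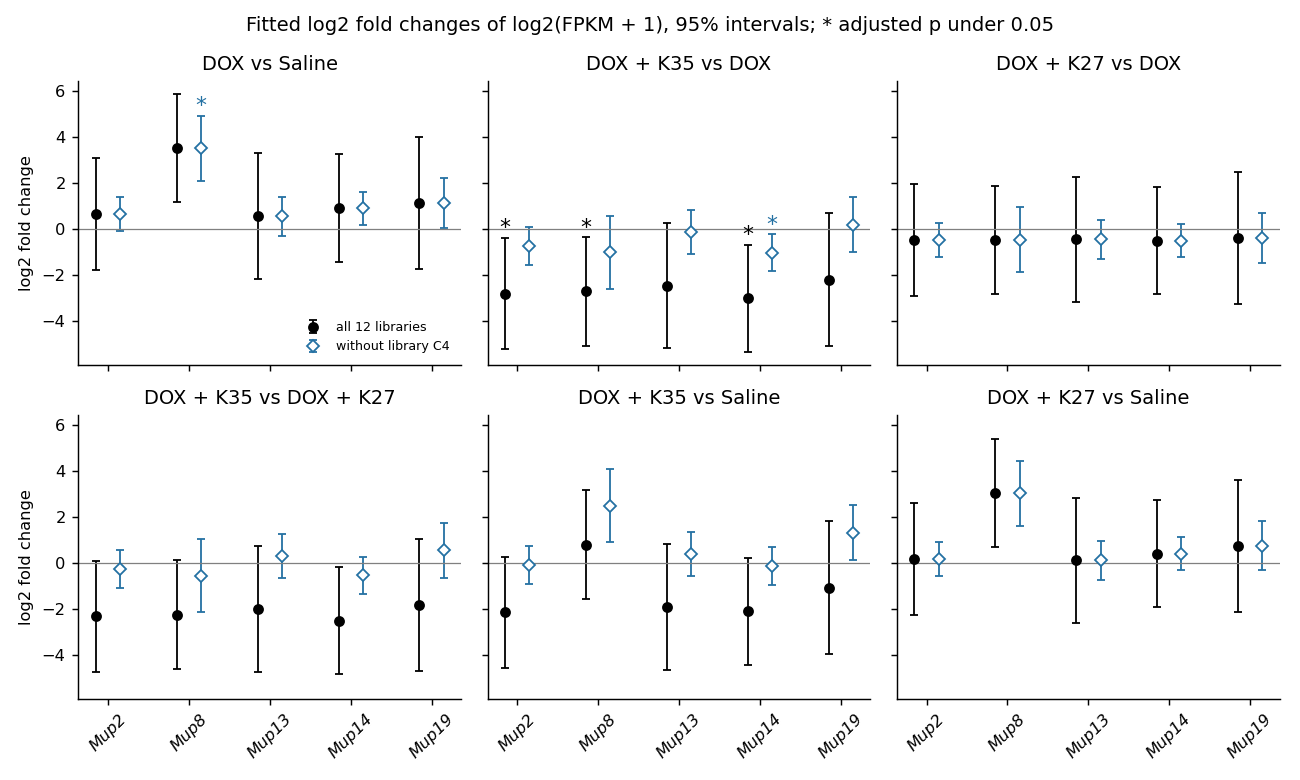
Fitted log2 fold changes of the 5 Mup genes on the log2(FPKM + 1) scale in 6 comparisons, with 95% intervals, from all 12 libraries (filled circles) and without library C4 (open diamonds). Asterisks mark adjusted p under 0.05, which Mup2, Mup8 and Mup14 reach in DOX + K35 vs DOX, and, without library C4, Mup14 there and Mup8 in DOX vs Saline.

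With K27 added to doxorubicin, the members were 0.39 to 0.50 lower than in DOX on the log2 scale, with standard errors of 1.09 to 1.35 and adjusted p-values of 0.808 to 0.893. None passed the threshold, which 0.0603% of all genes did in either direction. The 95% interval for Mup14 was -2.84 to 1.83, which allows a fall as well as a rise by more than 2-fold. Without library C4 it was -1.23 to 0.22, which allows a fall by more than 2-fold as well as a small rise. In no member were all DOX + K27 values below all DOX values, as they were in 2.68% of all genes. The sign for Mup19 rested on DOX replicate 1, without which its difference was 0.27. The median of all genes was 0.36.

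K35 and K27 were given at the same dose and on the same days, which allows a direct comparison of these related compounds. The members were 1.82 to 2.51 lower in DOX + K35 than in DOX + K27 on the log2 scale. None passed the threshold (adjusted p = 0.162 for Mup14 to 0.312 for Mup19), when 1.69% of all genes were called lower. Mup8 and Mup14 were lower in every DOX + K35 library than in every DOX + K27 library, as were 18.9% of all genes. Without library C4 the differences were -0.26 ± 0.38 for Mup2, -0.54 ± 0.74 for Mup8, 0.30 ± 0.45 for Mup13, -0.53 ± 0.38 for Mup14 and 0.57 ± 0.56 for Mup19, with adjusted p-values of 0.285 to 0.582. The signs of Mup13 and Mup19 turned. The 95% intervals then ran from -1.34 to 0.27 for Mup14 and from -0.63 to 1.76 for Mup19.

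Against Saline, the DOX + K35 livers had 4 members lower, by 1.07 to 2.15 on the log2 scale, and Mup8 higher by 0.80, with adjusted p-values of 0.349 to 0.678. Of all genes, 0.181% passed the threshold in either direction. With all 12 libraries, no member had groups that did not overlap, as 32.3% of all genes did. In Mup8 and Mup19, DOX + K35 replicates 1 and 2 were above every Saline library, which was not counted over all genes. Without library C4, Mup8 was higher than in Saline by 2.50 ± 0.74 (adjusted p = 0.200), Mup19 by 1.31 ± 0.56 (adjusted p = 0.282) and Mup13 by 0.41 ± 0.45 (adjusted p = 0.569), while Mup2 and Mup14 differed by -0.09 and -0.13. The DOX + K27 livers had all 5 members higher than Saline. Mup8 led at 3.04 ± 1.104 (adjusted p = 0.632), again the largest positive difference of all genes tested, and the others differed by 0.11 to 0.75. None passed the threshold, while 0.121% of all genes were called higher. Mup8 was the single member with every DOX + K27 value above every Saline value, as were 11.0% of all genes. These comparisons share their Saline and DOX libraries, so the values of the members in them are not independent of each other.

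The share of each member in the Mup sum is not altered when a library is multiplied by a factor. Mup8 made up 0.605%, 4.89% and 0.876% of the sum in the Saline livers. It made up 10.8%, 9.01% and 9.01% in DOX and 9.13%, 9.36% and 10.9% in DOX + K27. In DOX + K35 its shares were 8.57% and 4.80%, with 13.4% in library C4, so that this library, low in all members, had its Mup8 share above those of all others. All DOX and DOX + K27 shares were above all Saline shares. The means were 2.12% ± 2.40 in Saline, 9.62% ± 1.05 in DOX, 9.79% ± 0.961 in DOX + K27 and 8.93% ± 4.31 in DOX + K35 (SD, n = 3). The DOX + K35 mean was 6.69% without library C4, and its replicate 2 (4.80%) lay below Saline replicate 2 (4.89%). For DOX and for DOX + K27 against Saline, the two-sided exact permutation p was 0.1, the smallest this design allows, and 0.5 after adjustment over the 30 tests of 5 members and 6 comparisons.

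The share of Mup13 ran the other way in the same comparisons. The shares of a library are parts of the same sum, so a larger share of Mup8 leaves less for the others. In FPKM, Mup13 was not lower, at 202 ± 82.5 in Saline, 290 ± 75.4 in DOX and 208 ± 24.2 in DOX + K27 (mean ± SD, n = 3). Its share was 33.1% ± 2.78 in Saline, 25.2% ± 2.31 in DOX and 26.2% ± 2.19 in DOX + K27 (SD, n = 3; exact permutation p = 0.1 for each against Saline, adjusted p = 0.5). Mup19 took 35.7% of the sum in DOX replicate 1 and 33.2% in DOX + K35 replicate 2, against 11.5% to 26.1% in the other libraries. Mup2 and Mup14 were lowest in share in those same libraries, at 14.2% and 16.7% in the first and 12.2% and 13.0% in the second. Given the uniqueness of the Mup19 and Mup2 transcripts above, how reads were divided between copies was not tested as a part of this.

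**Figure D3:**
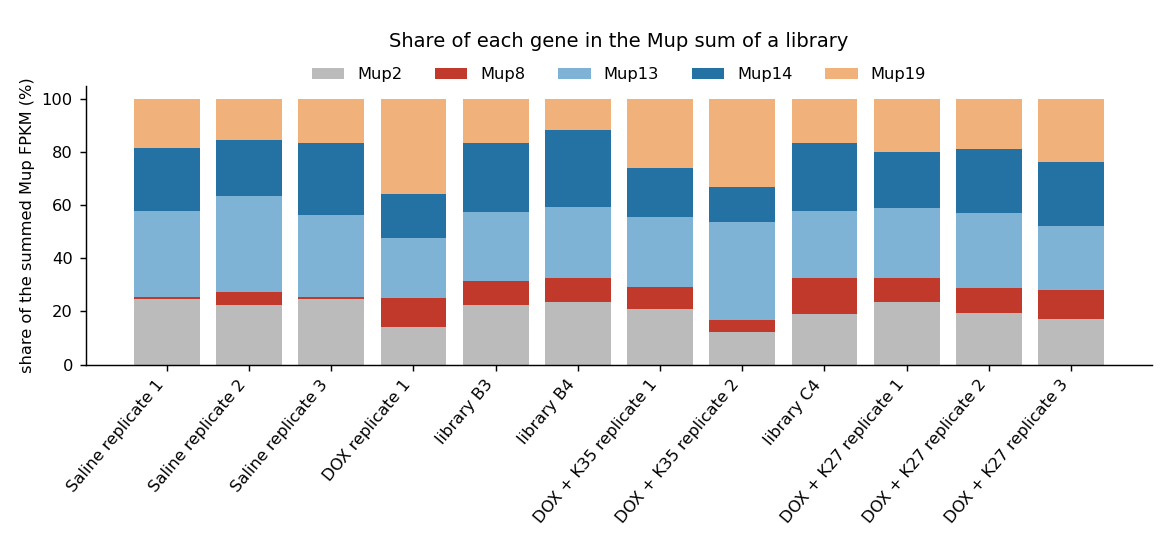
Share of each of the 5 Mup genes in the summed Mup FPKM of each of the 12 libraries, in percent, as stacked bars that start at 0. Mup8 (red) is 0.605% to 4.89% of the sum in Saline and 9.01% to 10.8% in DOX, and Mup19 (orange) is widest in DOX replicate 1 and DOX + K35 replicate 2.

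Library C4 differed from the other DOX + K35 libraries in few genes as much as in these. The mean of DOX + K35 replicates 1 and 2 was 160 times its value for Mup2, 91.6 times for Mup8, 251 times for Mup13, 115 times for Mup14 and 363 times for Mup19. Even the lowest of the other 11 libraries, Saline replicate 1 in each case, was 93.9 to 131 times higher for Mup2, Mup13, Mup14 and Mup19, and 4.54 times higher for Mup8. Of the 3317 genes tested, 4 lay at least 5 units on the log2(FPKM + 1) scale below every other library in C4, and these were Mup13, Mup2, Mup14 and Mup19. No gene did so in any of the other 11 libraries. Lying below all others by at least 2 units was found for 13 genes in C4 and for 0 to 3 genes in each other library.

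The 13 genes also included Serpina6, which encodes the carrier of glucocorticoids in blood and was at 15.0 FPKM in C4 against 174 to 650 FPKM in the others. A1bg, a female-biased plasma protein gene, was at 2.44 against 14.6 to 358 FPKM, and the interferon-stimulated gene Isg15 at 1.31 against 9.36 to 79.4 FPKM. The 4 globin genes Hba-a1, Hba-a2, Hbb-bs and Hbb-bt summed to 62.2 FPKM in C4 and to 330 to 1135 FPKM in the other libraries. The last 2 of the 13 were loci without a gene name. In the opposite direction, Sult1e1, which encodes the estrogen sulfotransferase, was at 349 FPKM in C4 and at 0.191 to 3.77 FPKM elsewhere. Ddit4, a stress-induced inhibitor of mTOR signalling, was at 22.8 FPKM against 1.17 to 4.86 FPKM. These genes other than the Mup genes were named after their values had been seen.

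Over all genes tested, C4 correlated at 0.923 and 0.934 with DOX + K35 replicates 1 and 2, which correlated at 0.991 with each other. The hepatocyte markers Apoa1, Apoa2, Apob, Apoc3, Trf, Cps1, Cyp2e1, Cyp3a11 and Tat summed to 21065 FPKM in C4, 24852 to 25317 FPKM in replicates 1 and 2, and 14047 to 27334 FPKM over the other 11 libraries. None of the 9 was at 0 in any library. The mitochondrially encoded share of C4 was 48.7%, inside the range of the others. In whole liver, fewer cells of a type and less RNA per cell cannot be told apart.

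**Figure D4:**
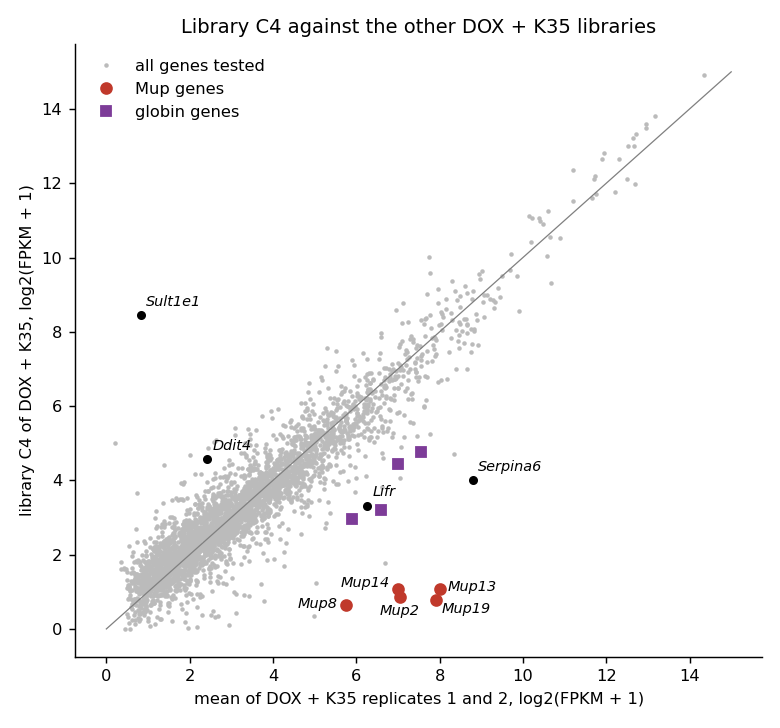
Each point is 1 of the 3317 genes tested, with the mean log2(FPKM + 1) of DOX + K35 replicates 1 and 2 on the x axis and library C4 on the y axis. The diagonal marks equal values. The 5 Mup genes (red) lie lowest for their level, the globin genes (purple) and Serpina6 below the diagonal, and Sult1e1 far above it.

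Genes beside the cluster were not below all other libraries in C4, as the Mup genes were. Of the genes in the table, 8 lay within 2 Mb of the members on chromosome 4. The 7 that could be tested were Ugcg, Ptbp3 and Hsdl2 on one side and Slc31a1, Hdhd3, Col27a1 and Orm3 on the other, and each was in C4 inside the range of the other 11 libraries. Hsdl2, at 15.5 FPKM in C4, ran from 4.48 to 34.0 FPKM elsewhere, and Slc31a1, a copper transporter gene, was at 29.0 FPKM against 10.2 to 58.2 FPKM. Against DOX + K35 replicates 1 and 2, C4 was lower in Hdhd3 (11.1 against 20.1 and 19.4 FPKM) and Slc31a1 (29.0 against 58.2 and 53.1 FPKM). It was also lower in Hsdl2 (15.5 against 25.1 and 31.3 FPKM) and Ugcg (3.02 against 6.44 and 4.96 FPKM). In Col27a1 and Orm3 it was higher than both replicates, and in Ptbp3 between them. The eighth, Kif12, had a mean below 1 FPKM. With K35 added to DOX, 4 of the 7 rose, when 46.0% of all genes were called higher. These were Hsdl2 by 1.37 (adjusted p = 0.00990), Ptbp3 by 1.26 (adjusted p = 0.00497), Slc31a1 by 1.22 (adjusted p = 0.0171) and Ugcg, the glucosylceramide synthase gene, by 0.66 (adjusted p = 0.0418). None of the 7 fell. Relative to the median of all genes, which depends on the scaling, these were 0.91, 0.80, 0.76 and 0.20. Orm3, a lipocalin gene of the acute phase, had a difference of -0.05 (adjusted p = 0.964).

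The growth hormone pathway controls the Mup genes in male liver, and 6 of the 30 genes listed for it were in the table. Ghr, Stat5b and Igf1 were not analysed here. In DOX against Saline 0 of the 6 genes were called (median difference -0.92 against -0.34 for all genes), and in DOX + K35 against DOX 4 rose and none fell (median 0.92 against 0.46), beside the 46.0% of all genes called higher. Those were the signal transducer gene Stat3 by 1.32 ± 0.30 (SE; adjusted p = 0.00567), the repressor gene Zhx2 by 0.84 ± 0.19 (adjusted p = 0.00567), the female-biased repressor gene Cux2 by 1.18 ± 0.43 (adjusted p = 0.0298) and the hepatocyte factor gene Foxa3 by 1.01 ± 0.39 (adjusted p = 0.0390). Socs2, a STAT5B target that feeds back on the receptor, averaged 10.9 ± 4.17 FPKM in the Saline livers. Its mean was 6.72 ± 1.97 FPKM with DOX, 11.8 ± 2.47 FPKM with K35 added and 20.98 ± 5.70 FPKM with K27 added (SD, n = 3), with adjusted p = 0.147 for DOX against Saline and 0.0562 for DOX + K35 against DOX. Without library C4, 3 of the 6 rose in DOX + K35 against DOX, as did 46.7% of all genes, and Cux2 no longer passed (adjusted p = 0.126). With all 12 libraries, 2 of the 6 were called after median-ratio scaling, after quantile normalization or with the mitochondrially encoded genes left out, and 1 with the 20 most abundant genes left out, where the median of the list was 0.37. In the same order of settings, 78.1%, 69.9%, 69.8% and 71.0% of all genes tested were called in either direction.

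Of the male-biased genes of the liver, 3 of 16 listed were tested. With K35 added, Ugt2b38 rose relative to DOX by 2.23 ± 0.67 (adjusted p = 0.0117), and none fell (median 1.31 against 0.46 for all genes). Selenbp2, named after its values had been seen, was at 13.0, 15.7 and 9.78 FPKM in Saline, at 29.2, 18.5 and 25.9 FPKM with DOX and, with K35 added, at 27.2 and 17.4 FPKM and, in library C4, at 8.10 FPKM, the lowest of the 12. Every DOX value was above every Saline value (difference 0.89, adjusted p = 0.101), and DOX + K35 differed from DOX by -0.58 (adjusted p = 0.232), or by -0.14 without library C4. Without library C4, 2 of the 3 rose. In DOX against Saline none passed (median -0.97). Of the 9 tested female-biased genes out of 25 listed, 6 rose and none fell in DOX + K35 against DOX (median 1.38), or 8 rose without library C4, beside 46.0% and 46.7% of all genes. Cyp39a1, an oxysterol hydroxylase gene, rose by 3.12 ± 0.55 (adjusted p = 0.00496). The same list had 1 member called in DOX against Saline, the acyl-CoA thioesterase gene Acot3, which fell by 2.36 ± 0.44 (adjusted p = 0.0480). Under the other scalings the median of the male-biased list was 0.48 to 1.00 and that of the female-biased list 0.78 to 1.09. Both sex-biased lists thus had positive medians in the comparison in which the Mup genes had a median of -2.72, or -0.75 without library C4.

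Of the other lipocalins, 4 of 10 listed were tested, and Lcn2 was not analysed here. Apom, which encodes a lipocalin of high-density lipoprotein, rose in DOX + K35 against DOX by 2.50 ± 0.57 (adjusted p = 0.00567), and Ptgds, the lipocalin-type prostaglandin synthase gene, fell by 1.42 ± 0.42 (adjusted p = 0.0110). Orm3 and C8g differed by -0.05 and 0.01 (median of the list -0.02 against 0.46 for all genes). Of all genes, 56.8% were called in either direction in this comparison. Under the other scalings the median of the list was -0.72 to -0.32. After quantile normalization or with the 20 most abundant genes left out, 3 genes were called, beside 69.9% and 71.0% of all genes tested. Both calls of the main fit stood without library C4, when 46.7% of all genes were called higher and 16.8% lower. DOX against Saline gave no call among the 4 genes (lowest adjusted p = 0.0698), when 0.181% of all genes were called.

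Markers of other cell types were read from lists. Between DOX and DOX + K35, 6 of 9 hepatocyte genes rose (median 1.54), 4 of 6 Kupffer cell genes rose (median 0.93), and all 4 globin genes fell (median -1.99). Of all genes, 46.0% were called higher and 10.7% lower, with a median of 0.46. Without library C4, these were 6, 3 and 2. The erythroid sum was 330 to 506 FPKM in Saline, 821 to 1135 in DOX, 452 to 1072 in DOX + K27, and 369 and 596 in DOX + K35 replicates 1 and 2. All 3 DOX values lay above all 3 Saline values, and library C4 held the lowest value of both the erythroid and the Mup sum. The part of these cells in the Mup values was not tested. Stellate cell, endothelial, lymphocyte and neutrophil lists had 4, 2, 1 and 1 genes, with sums of at most 18.6 FPKM in any library. Of these 8 genes, 2 endothelial genes rose and 1 stellate cell gene and the lymphocyte gene Cd79b fell in DOX + K35 against DOX. With library C4 left out, 1 endothelial gene rose, and 1 stellate cell gene and the neutrophil gene Csf3r (adjusted p = 0.0348) fell. Cd79b was then not called (adjusted p = 0.113). Of all genes, 46.7% were then called higher and 16.8% lower.

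The 5 genes whose log2 values followed log2 of the Mup sum most closely over the 12 libraries, among 3124 named genes, were Lifr, the gene of the leukemia inhibitory factor receptor, (Pearson r = 0.909), the globin genes Hbb-bs (r = 0.909), Hbb-bt (r = 0.893) and Hba-a1 (r = 0.889), and the carboxylesterase gene Ces3b (r = 0.869). The 3 most opposed were Sult1e1 (r = -0.933), Lhx6 (r = -0.904) and Celsr1 (r = -0.892). Lifr was at 8.99 FPKM in C4 and at 38.7 to 88.9 FPKM in the others. Without C4, r was 0.303 for Lifr, 0.577 for Hbb-bs, 0.577 for Hbb-bt, 0.572 for Hba-a1 and 0.687 for Ces3b, and among the opposed genes 0.313 for Sult1e1, -0.51 for Lhx6 and -0.036 for Celsr1. Without C4 (n = 11), the 5 closest were Fgfr1 (r = 0.774), Tagln (r = 0.774), Camk2b (r = 0.760), Myl9 (r = 0.741) and Selenom (r = 0.716), and 0 of the 5 were shared with the list from all 12. Among themselves, pairs of members correlated at 0.734 to 0.994 over the 12 libraries and at 0.281 (Mup2 with Mup19) to 0.902 (Mup2 with Mup14) without C4. All of these share libraries and their scaling, and are given as descriptions.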

How the data were processed

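The authors deposited 1 table of FPKM values for genes they had selected as differentially expressed, and its header names no unit. Per the submitters' processing notes, HISAT2, DESeq2, edgeR and GRCm38 were used, with settings and versions not given in the sources used here. The deposited FPKM values were taken as they stand. They hold no read counts, so depth is unknown and no count model was run. For the libraries named B3, B4 and C4 the group was known but no replicate number.

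Genes averaging 1 FPKM or more over the libraries were tested as log2(FPKM + 1) with limma 3.58.1 (R 4.3.3; trended empirical Bayes, 1 group term, all 12 libraries, Benjamini-Hochberg within each of 6 comparisons, threshold 0.05). Adding 1 before taking logs shrinks the differences of weakly expressed genes. Mup sums and shares were compared by two-sided exact permutation tests. The procedure was tested on simulated data. Alternatives were another pseudocount, no filter, 4 other scalings, the compared groups alone, a stricter threshold, a replicate block and each library left out. Same-numbered Saline and DOX + K27 libraries deviated together (r = 0.258, 0.176 and 0.474), and the replicate block alone uses this pairing. All other tests are unpaired. The labels do not say what a number marks.

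Named genes were the members, the 5 most and 3 least similar genes, table genes within 2 Mb, and up to 6 called genes per list and comparison. The members and lists were chosen with earlier results of these data known. Positions and transcripts were from GENCODE M21 and promoters from RefSeq (GRCm38.p6), read with Python 3.11.15.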

Additional observations from a re-analysis of the deposited data

How the results depend on the processing

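The direction of all 5 members was the same under every scaling tried in the 6 comparisons. In DOX + K35 against DOX, Mup14 passed the threshold in 15 of 19 alternatives, Mup8 in 9, Mup2 in 6, Mup13 in 3 and Mup19 in 1. With 1 library left out, the log2 difference of the sum in DOX + K35 against DOX ran from -4.26 to -0.45 and kept its sign, while the following turned sign. Mup19 ran from -3.65 to 0.18 in that comparison. For DOX + K35 against DOX + K27, Mup13 ran from -3.45 to 0.30, Mup19 from -3.26 to 0.57 and the sum from -3.75 to 0.054. For DOX + K35 against Saline, Mup8 ran from -0.092 to 2.50, Mup13 from -3.34 to 0.41, Mup19 from -2.51 to 1.31 and the sum from -3.30 to 0.50. For DOX + K27, Mup19 ran from -0.75 to 0.27 against DOX, and Mup2 from -0.026 to 0.37 and Mup13 from -0.12 to 0.42 against Saline. With the replicate block (9 libraries, without B3, B4 and C4), Mup13 and Mup19 were at 0.27 and 0.63 and the sum at 0.13 in DOX + K35 against DOX + K27, and at 0.38, 1.37 and 0.47 against Saline. No member was called with the block. The block gave 1448, 235 and 0 calls among all genes in DOX + K35 against DOX + K27, DOX + K35 against Saline and DOX + K27 against Saline, and the same 9 libraries without it 677, 5 and 5. The comparison of DOX with Saline called 6 of all genes, and 2 to 1474 with 1 library left out, the highest without DOX replicate 1. It called 2 with a pseudocount of 0.1, 11 with no filter, 1059 with median-ratio scaling, 649 with quantile normalization, 1126 without the 20 highest genes and 2 at a threshold of 0.01. DOX + K35 against DOX called 1883, 1517 to 2105 with 1 library left out and 1208 at 0.01. Of the 1883, 1527 were higher and 356 lower, against 1462 and 1127 with median-ratio scaling, 1261 and 1059 with quantile normalization, 916 and 1450 without the 20 highest genes and 1409 and 903 without the mitochondrially encoded genes. DOX + K27 against DOX called 2, 0 to 1097 with 1 library left out (highest without DOX replicate 1), 0 with median-ratio scaling, 5 with quantile normalization, 7 without the 20 highest genes, 0 without the mitochondrially encoded genes, 7 in a fit of only these groups and 0 at 0.01. DOX + K35 against DOX + K27 called 70, 16 to 282 with 1 library left out, and in the same order 290, 224, 260, 118, 27 and 12. DOX + K35 against Saline called 6, 0 to 18 with 1 library left out, 3 with no filter, 1 with quantile normalization, 0 in a fit of only these groups and 0 at 0.01. DOX + K27 against Saline called 4, 0 to 9 with 1 library left out, 10 with no filter, 2 with median-ratio scaling, 1 with quantile normalization, 7 without the 20 highest genes and 0 at 0.01. The causes were not tested. DESeq2 and edgeR were not run, since the values are not counts.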
